A study of Mus musculus with 26 samples.

Results

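The MHC class I presentation and immunoproteasome genes H2-K1, H2-D1, B2m, Tap1, Tap2, Tapbp, Psmb8, Psmb9, Psmb10 and Nlrc5 were followed in injured mouse muscle and in C2C12 cells with reduced Mettl3. The 10 genes were chosen from earlier results of these same libraries, by symbol, and each had a row in both deposited FPKM tables, among 53465 rows of the muscle regeneration table and 55487 rows of the knockdown table. Their changes with injury and with the knockdown are therefore given as a description. FPKM, fragments per length of gene and size of library, is a level per gene length. Setting different genes side by side within a library assumes that libraries cover short and long genes alike, which did not hold between C2C12 replicates.

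Tibialis anterior (TA) muscle was sampled on day 0 (D0) and on days 1, 3, 5 and 10 (D1, D3, D5 and D10) after cardiotoxin (CTX), a venom toxin that destroys myofibers, with 2 libraries for each day. The methods describe the animals as male C57BL/6J mice aged 6 weeks, and name normal saline as the control of the injection, but no source says whether D0 muscle received it. C2C12 cells, a myoblast line from the C3H strain, were either control cells (CTRL) or knockdown cells (labelled Cas9M3). The latter carried dCas9-KRAB with guide RNAs against the Mettl3 promoter, from a lentiviral vector under puromycin selection. The methods do not say which construct, virus or selection the control cells received, so effects of these cannot be told apart from the loss of Mettl3. The dCas9-KRAB method is a knockdown by transcriptional repression, although the series text calls the cells knockout derivatives. Mettl3 is the enzyme that writes N6-methyladenosine on mRNA. RNA of each line came from cells kept in growth medium (GM) and from cells on day 3 of differentiation (DM3), with 2 libraries for each of the 4 groups. The overexpression libraries of the series were not analysed here. The methods speak in general of independent biological samples, but no source ties the libraries of a group to separate cultures or single animals, so p-values measure only the spread between these libraries.

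MHC class I molecules are heavy chains, in these mice H2-K1 and H2-D1, that bind the small chain B2m and display peptides from inside the cell to cytotoxic T cells. The proteasome cuts the peptides, the Tap1 and Tap2 transporter carries them into the endoplasmic reticulum, and Tapbp (tapasin) holds the empty heavy chain beside the transporter. Interferons raise Psmb8, Psmb9 and Psmb10, which replace the constitutive catalytic subunits Psmb5, Psmb6 and Psmb7 to form the immunoproteasome, and Nlrc5 is the transactivator of class I genes. Resting myofibers are known for little surface class I.

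Promoter sequences of 8 of the 10 genes were in the RefSeq table of build GRCm38.p6, which held no entry for Tap2 and Nlrc5. The stretches below are shown because 3 short motifs known from class I promoters lie in them in the same order in the heavy chain and B2m genes. Capitals mark, from left to right, a match to the interferon regulatory factor core AANNGAAA, the CRE core TGACG and the CCAAT box, each searched on both strands. The H2-K1 stretch is chr17:34000353-34000517 on the minus strand, the H2-D1 stretch is chr17:35262926-35262955 on the plus strand and holds the first motif alone, and the B2m stretch is chr2:122147517-122147681 on the plus strand.
H2-K1: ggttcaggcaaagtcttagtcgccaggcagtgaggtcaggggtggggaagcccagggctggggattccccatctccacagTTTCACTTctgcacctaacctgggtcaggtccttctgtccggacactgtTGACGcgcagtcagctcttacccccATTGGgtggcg
H2-D1: gattccccatctcctcagTTTCACTTctgc
B2m: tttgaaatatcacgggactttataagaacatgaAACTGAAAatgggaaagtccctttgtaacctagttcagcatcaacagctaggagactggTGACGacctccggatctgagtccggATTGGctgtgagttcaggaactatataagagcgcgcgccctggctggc
Upstream of the RefSeq start the first bases of the 3 motifs were at -90, -41 and -16 in H2-K1, at -137, -78 and -53 in B2m, and at -150, -101 and -76 in H2-D1, which held another CCAAT box at -53. Shifted by 60 bases, 97 of 110 upstream bases of H2-K1 and H2-D1 were identical (88.2%). In the 250 bases upstream, AANNGAAA was found in 3 of the 8 genes (H2-K1, H2-D1 and B2m) and in 21.3% of 32851 RefSeq promoters. TGACG was found in 5 genes (those 3, Tap1 and Psmb9) and in 17.8% of promoters, and CCAAT in 6 (those 5 and Tapbp) and in 33.8%. The gamma-activated site TTCNNNGAA was found in Psmb8 alone, at -97, and in 7.02% of promoters. Psmb10 held none of these letters in this window. These are matches of letters and not measured binding sites. For H2-D1, Tapbp, Psmb8 and Psmb9 all bases searched lay inside the GENCODE gene, which starts farther upstream than the RefSeq start used here.

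Of these genes, 7 lie in the MHC region of chromosome 17, in GENCODE M21 coordinates of GRCm38. Psmb9 (17:34181987-34187764, minus strand) and Tap1 (17:34187553-34197225, plus strand) start beside each other, followed by Psmb8 (17:34197721-34201454) and Tap2 (17:34203527-34216321). Tapbp (17:33915899-33929292) and H2-K1 (17:33996017-34000347, minus strand) lie on one side of them, and H2-D1 (17:35262730-35267499) on the other. B2m is at 2:122147686-122153083, Psmb10 at 8:105935735-105938444 and Nlrc5 at 8:94434356-94527272. Some reads cannot be placed with certainty. Psmb9 and Tap1 share 212 exonic bases on opposite strands, other annotated genes cover 29.0% of the exonic bases of Tapbp, 18.5% of Tap2 and 14.7% of Psmb8, and whether counting used strand is not given in the sources used here. Of the sequences of 50 bases in H2-D1 transcripts, 14.3% also occur in another gene, and 8.79% of those in H2-K1, so both heavy chains are uncertain where copies share reads. C2C12 reads of these polymorphic chains came from the C3H strain and were aligned to the C57BL/6J reference.

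The targeted gene was checked first. Mettl3 was at 4.70 and 5.65 FPKM in CTRL GM (replicates 1 and 2), 0.331 and 0.118 in Cas9M3 GM, 4.68 and 5.15 in CTRL DM3 and 0.148 and 0.0805 in Cas9M3 DM3. The knockdown libraries were below the control libraries in both media. In muscle Mettl3 stayed between 3.59 and 4.97 FPKM. Read steps in the FPKM values gave 14170000 to 18820000 reads on genes per muscle library and 14230000 to 29570000 per C2C12 library. Replicate 2 of CTRL GM stood apart, with 29.56% of its reads on ribosomal loci against 0.5421 to 11.61% in the other C2C12 libraries. Relative to replicate 1 its genes with under 1500 exonic bases were higher (median log2 ratio 0.89, 2560 genes) and its genes with 6000 or more were lower (median -0.46, 3753 genes), and the part of this in the GM values of B2m (860 exonic bases) and Nlrc5 (8493 exonic bases) was not tested. Among muscle libraries Xist was at 5.77 to 10.0 FPKM in both D0, both D10 and replicate 2 of D3, and at most 0.152 FPKM in the other 5, which instead expressed the Y-linked gene Ddx3y at 6.10 to 11.4 FPKM. The D0 and D10 libraries thus differed in sex from those of D1 and D5, and the stated male sex holds for 5 of 10 libraries. The tissue label was matched by muscle markers (summed Myod1, Myf5, Pax7, Des, Myog, Ckm, Acta1, Myh4 and Mymk of 30529 to 31174 FPKM on D0).

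All 10 genes had their highest mean level in muscle on D3. In FPKM the heavy chains and B2m were the highest and Nlrc5 the lowest, and the levels on D10 overlapped those on D0 for every gene. H2-K1 was at 33.1 and 48.5 FPKM on D0, 50.7 and 50.6 on D1, 120 and 118 on D3, 85.1 and 88.8 on D5 and 32.9 and 57.4 on D10. Both D3 libraries lay above all other libraries, and both D5 libraries above those of D0, D1 and D10. H2-D1, the other classical heavy chain, was at 38.7 and 53.6 FPKM on D0, 65.3 and 74.2 on D1, 142 and 151 on D3, 98.8 and 107 on D5 and 34.9 and 68.9 on D10. B2m, the shared light chain, was at 87.7 and 124 FPKM on D0, 114 and 161 on D1, 315 and 342 on D3, 220 and 270 on D5 and 85.5 and 194 on D10. The 2 replicates of D10 were far apart for these 3 genes, with replicate 2 the higher.

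**Figure D1:**
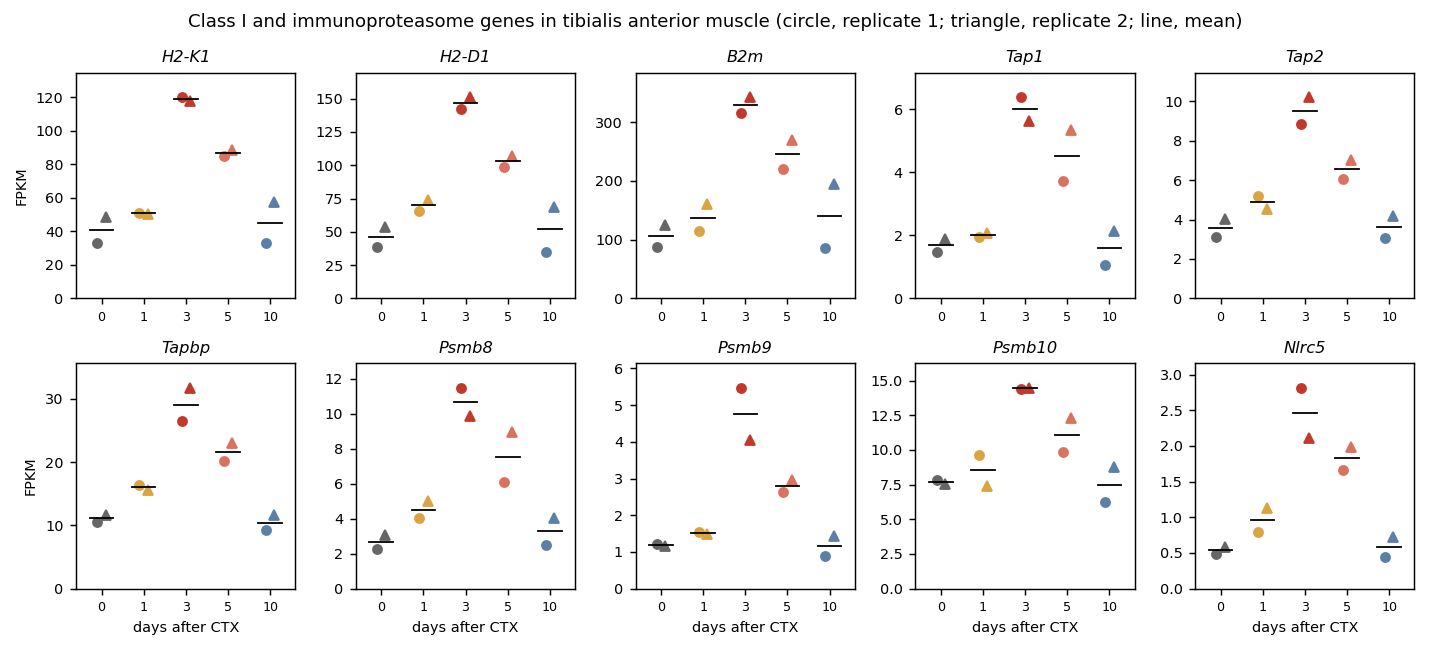
FPKM of each of the 10 genes (y axes, linear and starting at 0) against day after CTX (x axes), with circles for replicate 1, triangles for replicate 2 and lines for the mean of 2 libraries. Every panel has its highest mean on D3, and the D10 libraries overlap those of D0.

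The peptide transport and loading genes had the same course. Tap1 was at 1.47 and 1.89 FPKM on D0, 1.96 and 2.08 on D1, 6.37 and 5.63 on D3, 3.73 and 5.32 on D5 and 1.07 and 2.15 on D10. Its partner Tap2 was at 3.10 and 4.04 FPKM on D0, 5.21 and 4.53 on D1, 8.83 and 10.2 on D3, 6.07 and 7.00 on D5 and 3.05 and 4.19 on D10. Tap2 was thus above Tap1 in FPKM in every muscle library, with 3781 annotated exonic bases for Tap2 and 5476 for Tap1. In reads, Tap1 was above Tap2 in replicate 1 of D3 (688 and 659) and replicate 2 of D5 (574 and 522). It was below Tap2 in all other muscle libraries. The part of annotated length in this order was not tested. Tapbp was at 10.5 and 11.6 FPKM on D0, 16.4 and 15.6 on D1, 26.5 and 31.8 on D3, 20.2 and 23 on D5 and 9.29 and 11.6 on D10.

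Among the immunoproteasome subunits Psmb8 and Psmb9 varied more over the days than Psmb10. Psmb8 was at 2.29 and 3.07 FPKM on D0, 4.03 and 4.98 on D1, 11.5 and 9.88 on D3, 6.08 and 8.95 on D5 and 2.51 and 4.02 on D10. Psmb9 was at 1.21 and 1.17 FPKM on D0, 1.55 and 1.48 on D1, 5.48 and 4.05 on D3, 2.63 and 2.97 on D5 and 0.893 and 1.42 on D10. Psmb10, the highest of the 3 in FPKM, was at 7.82 and 7.51 FPKM on D0, 9.62 and 7.41 on D1, 14.4 and 14.5 on D3, 9.86 and 12.3 on D5 and 6.23 and 8.76 on D10. In reads the order of Psmb8 and Psmb10 varied, with 96 and 166 in replicate 1 of D0 and 769 and 485 in replicate 1 of D3. Their exonic bases are 3381 and 1705. The ratio of the highest to the lowest group mean was 4.0 for Psmb8, 4.12 for Psmb9 and 1.93 for Psmb10. Nlrc5, the transactivator, was the lowest of the 10 at 0.491 and 0.582 FPKM on D0, 0.798 and 1.13 on D1, 2.82 and 2.11 on D3, 1.66 and 1.99 on D5 and 0.442 and 0.728 on D10. It had the largest such ratio of the 10 genes, 4.59.

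Changes were fitted with limma on log2(FPKM + 0.1) across all 16753 tested genes of the table, a gene was called at a Benjamini-Hochberg adjusted p of at most 0.05, and fold changes on this scale understate those of low genes. On D3 against D0 the log2 fold change (± SE) was 1.57 ± 0.27 for H2-K1, 1.68 ± 0.30 for H2-D1 and 1.65 ± 0.38 for B2m. For transport and loading it was 1.79 ± 0.31 for Tap1, 1.40 ± 0.21 for Tap2 and 1.38 ± 0.16 for Tapbp. The immunosubunits differed from each other more, with 1.97 ± 0.28 for Psmb8, 1.90 ± 0.24 for Psmb9 and 0.91 ± 0.20 for Psmb10, and Nlrc5 was at 2.00 ± 0.29. All 10 were called higher on D3, where 24.5% of all genes tested were called higher and 24.3% lower. Both D3 libraries were above both D0 libraries for all 10, as for 38.9% of all genes tested. The median over the 10 genes was 1.66, beside 0.01 over all genes tested. With the added threshold of a log2 fold change of at least 2, used in the study to define DEGs, 0 of 10 were DEGs, against 9.46% of all genes, and Nlrc5 lay just below it. Without replicate 1 of D0, B2m alone was no longer called. Quantile normalization shifted the median of all genes by -0.18, and over all 14 settings the 10 fold changes stayed between 0.84 and 2.43.

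The 10 genes were not called on D1, and most of them were called on D5. On D1 the log2 fold changes against D0 were between 0.14 and 0.74, 0 of 10 were called (3.53% of all genes higher; 3 of 10 at an unadjusted p of at most 0.05), and both D1 libraries were above both D0 libraries for 8 genes (25.5% of all genes). From D1 to D3 the fold changes were between 0.77 (Psmb10) and 1.58 (Psmb9), and 10 of 10 were called higher (14.5% of all genes). That count dropped to 6 without either D1 library, to 3 without replicate 1 of D3, and to 1 without replicate 2 of D3 or with the presence of Xist as a term. On D5 against D0, 9 of 10 were called higher (12.9% of all genes), with Psmb10 at 0.52 ± 0.20 not called, a median of 1.17, and both D5 libraries above both D0 libraries for all 10 (34.6% of all genes). The D5 count dropped to 2 without replicate 1 of D5, and to 0 without replicate 2 of D5, without replicate 1 of D0 or with the Xist term. Sex and day cannot be told apart in the D1 and D5 comparisons with D0. The same holds for D10 against D5, and the 2 libraries of D3 differed in sex from each other.

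All 10 genes were lower on D10 than on D5. From D3 to D5 the log2 fold changes were between -0.73 (Psmb9) and -0.39 (Psmb10), with 0 of 10 called lower (5.46% of all genes; 3 at an unadjusted p of at most 0.05), and both D5 libraries lay below both D3 libraries for all 10 (33.4% of all genes). From D5 to D10 the changes were between -1.52 (Nlrc5) and -0.57 (Psmb10). Both D10 libraries lay below both D5 libraries for all 10 (28.9% of all genes). In this comparison limma called 0 of 10 lower (0.161% of all genes). All 10 had an unadjusted p of at most 0.05, as had 4143 of all 16753 genes in either direction. On D10 against D0 the changes were between -0.12 and 0.30, 0 of 10 were called (0.00597% of all genes) and 0 had an unadjusted p of at most 0.05.

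Markers of leukocytes were highest on D3, like these genes, and their sum on D1 was already near that on D5. Summed FPKM of 5 leukocyte markers (Ptprc, Coro1a, Cd52, Laptm5 and Cd53) was 4.99 and 9.08 on D0, 44.6 and 37.5 on D1, 108 and 118 on D3, 35.3 and 43.6 on D5 and 6.47 and 22 on D10. The sum of 7 macrophage markers (Adgre1, Csf1r, C1qa, C1qb, C1qc, Cd68 and Itgam) was 20.2 and 39.2 on D0, 116 and 126 on D1, 644 and 609 on D3, 214 and 275 on D5 and 37.3 and 109 on D10. Replicate 2 of D10, the library with the higher class I values, was also the one with the higher marker sums. On D3, 5 of 5 leukocyte and 6 of 6 tested macrophage markers were called higher than on D0 (24.5% of all genes). Itgam, which stands on 2 rows of the table, is in the sums and not in these counts. On D1 the leukocyte list had a median log2 fold change of 2.45 against D0, with 2 of 5 called, and on D5 one of 2.23, with 5 of 5 called. The 10 class I genes had medians of 0.41 on D1, with 0 called, and 1.17 on D5, with 9 called. By these medians the courses of the leukocyte list and the class I genes parted on D1, but members of the leukocyte list differed. Ptprc was lower on D1 (0.633 and 0.81 FPKM) than on D5 (1.22 and 1.43). Coro1a was higher on D1 (13.0 and 11.2 FPKM) than on D5 (7.96 and 7.16). The macrophage list had medians of 1.38 on D1, with 1 of 6 tested called, and 3.20 on D5, with 6 of 6 called. Like the class I genes it was lower on D1 than on D5 by these medians. Cd68 went the other way, at 63.1 and 43.5 FPKM on D1 against 22.3 and 23.6 on D5. Over all genes 3.53% were called higher on D1 and 12.9% on D5. The 4 fibroblast markers (Pdgfra, Col1a1, Dpt and Dcn) summed to 46.6 and 106 FPKM on D0, 34.9 and 104 on D1, 414 and 439 on D3, 433 and 512 on D5 and 110 and 249 on D10, and 2 of 4 (Pdgfra and Col1a1) were called higher on D3 and on D5. The 3 neutrophil markers (S100a8, S100a9 and Csf3r) summed to 1.58 and 5.11 FPKM on D0, 18.7 and 9.52 on D1, 7.17 and 8.10 on D3, 2.15 and 2.86 on D5 and 0.641 and 1.59 on D10. The 6 T and NK cell markers summed to at most 5.80 FPKM in any muscle library, with 0.603 and 2.09 on D0 and 5.80 and 4.95 on D3. Of the 3 tested, 2 were called higher on D3 (24.5% of all genes) and 2 on D5 (12.9%), with medians of 2.36 and 1.88. The endothelial markers summed to 41.5 and 32.2 FPKM on D3 against 56.7 and 78.2 on D0. The sum of muscle markers, most of it from Acta1, Ckm and Myh4, was 9912 and 9661 FPKM on D3 against 31174 and 30529 on D0. Single muscle markers differed from this sum. Of the 9, 5 were called higher on D3 (24.5% of all genes) and 3 lower (24.3%), with a median of 1.31. Mymk rose from 0.637 and 3.57 FPKM on D0 to 132 and 241 on D3, while Acta1 fell from 17173 and 19800 to 5994 and 6530. In these bulk samples more cells of a type and more RNA per cell cannot be told apart, and the part of infiltrating cells and fibroblasts in the class I values was not tested.

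In C2C12 cells B2m was far above all other members, and 8 of the 10 genes had their highest mean in the knockdown cells in DM3. H2-K1 was at 14.1 and 11.7 FPKM in CTRL GM, 14.3 and 25.0 in Cas9M3 GM, 21.9 and 24.9 in CTRL DM3 and 48.4 and 33.8 in Cas9M3 DM3. H2-D1 was at 61.2 and 57.9 FPKM in CTRL GM, 58.0 and 69.9 in Cas9M3 GM, 65.5 and 65.8 in CTRL DM3 and 137 and 111 in Cas9M3 DM3. Both heavy chains were higher in both Cas9M3 DM3 libraries than in any other library of the line pair. B2m was at 513 and 891 FPKM in CTRL GM, 422 and 891 in Cas9M3 GM, 593 and 878 in CTRL DM3 and 1190 and 1275 in Cas9M3 DM3. Replicate 2 was above replicate 1 in every group for this short gene.

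**Figure D2:**
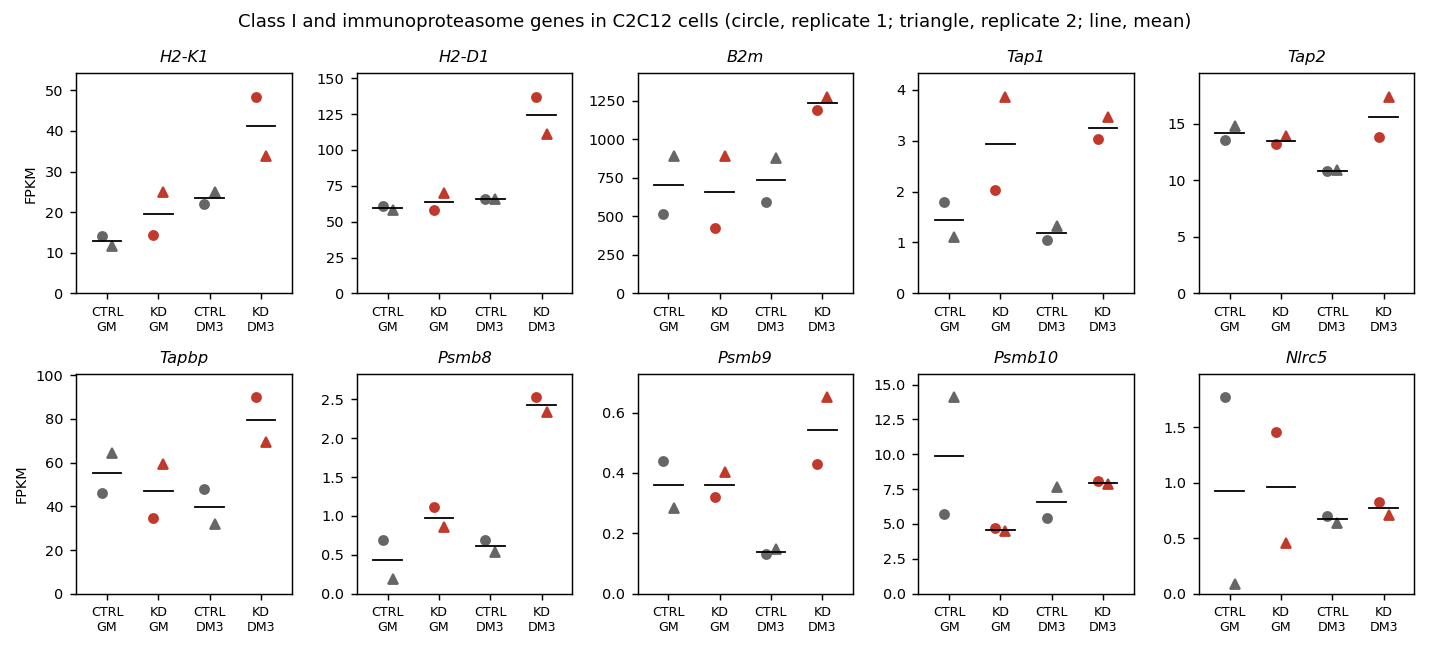
FPKM of each of the 10 genes (y axes, linear and starting at 0) in control (CTRL, grey) and Mettl3 knockdown (KD, red) C2C12 cells in GM and DM3, with circles for replicate 1, triangles for replicate 2 and lines for the mean of 2 libraries. Both knockdown libraries in DM3 lie above both control libraries in DM3 in all 10 panels, by little in Nlrc5 and Psmb10.

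Tap1 was at 1.79 and 1.10 FPKM in CTRL GM, 2.03 and 3.86 in Cas9M3 GM, 1.05 and 1.32 in CTRL DM3 and 3.03 and 3.47 in Cas9M3 DM3. Tap2 was at 13.6 and 14.8 FPKM in CTRL GM, 13.2 and 13.9 in Cas9M3 GM, 10.8 and 10.9 in CTRL DM3 and 13.8 and 17.4 in Cas9M3 DM3. Tap1 was thus the lower of the transporter chains in FPKM in the cells too, and there it was also lower in reads in every library. Tapbp was at 45.9 and 64.5 FPKM in CTRL GM, 34.8 and 59.5 in Cas9M3 GM, 47.9 and 31.8 in CTRL DM3 and 90.0 and 69.4 in Cas9M3 DM3. For Tap1 and Tapbp both Cas9M3 DM3 values were above both CTRL DM3 values, but the highest Tap1 value of all was in replicate 2 of Cas9M3 GM.

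Of the immunosubunits Psmb8 and Psmb9 were low in C2C12 cells, while Psmb10, at 4.47 to 14.1 FPKM, covered about the range it had in the separately scaled muscle table, 6.23 to 14.5 FPKM. Psmb8 was at 0.688 and 0.184 FPKM in CTRL GM, 1.11 and 0.854 in Cas9M3 GM, 0.690 and 0.533 in CTRL DM3 and 2.53 and 2.34 in Cas9M3 DM3, values that rest on 74, 6, 118, 53, 64, 30, 238 and 116 reads. Psmb9 was at 0.438 and 0.283 FPKM in CTRL GM, 0.320 and 0.402 in Cas9M3 GM, 0.130 and 0.148 in CTRL DM3 and 0.431 and 0.651 in Cas9M3 DM3, on 9 to 51 reads per library. Psmb9 did not reach 0.5 FPKM in 2 libraries and was not tested, so that 9 of the 10 genes passed the filter in this table. Psmb10 was at 5.74 and 14.1 FPKM in CTRL GM, 4.72 and 4.47 in Cas9M3 GM, 5.45 and 7.68 in CTRL DM3 and 8.08 and 7.87 in Cas9M3 DM3. Its highest value was in the library that stood apart. Nlrc5 was at 1.77 and 0.0853 FPKM in CTRL GM, 1.46 and 0.455 in Cas9M3 GM, 0.704 and 0.637 in CTRL DM3 and 0.824 and 0.713 in Cas9M3 DM3. Its replicates differed more than its groups in GM, and its lowest value rests on 7 reads in the library that stood apart.

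In DM3 all 9 tested genes were higher in knockdown than in control cells and none passed the test. The log2 fold change was 0.79 ± 0.32 for H2-K1, 0.91 ± 0.19 for H2-D1 and 0.77 ± 0.49 for B2m. It was 1.39 ± 0.38 for Tap1, 0.52 ± 0.17 for Tap2 and 1.01 ± 0.36 for Tapbp. Psmb8 had the largest value, 1.84 ± 0.51, beside 0.30 ± 0.41 for Psmb10 and 0.17 ± 1.07 for Nlrc5. By limma 0 of 9 were called higher (1.29% of all 13824 genes tested). Of the 9, 6 had an unadjusted p of at most 0.05, as had 2429 of all genes in either direction. Both knockdown libraries were above both control libraries for all 9, and for the untested Psmb9, as for 29.3% of all genes tested. The median over the 9 genes was 0.79, beside -0.05 over all genes. Fitted on the DM3 groups alone, 4 of 9 were called (H2-D1, Tap1, Tapbp and Psmb8), a setting in which the calls over all genes went from 179 to 1491 higher and from 95 to 1337 lower. The calls over all genes went to 0 in either direction without any single DM3 library. Markers of differentiated muscle differed between the same groups, with a summed level of the muscle markers of 821 and 741 FPKM in CTRL DM3 and 46.3 and 42.6 in Cas9M3 DM3, and the part of this difference in the class I values was not tested. Most leukocyte markers were at or near 0 in the cells. Ptprc was at most 0.00392 FPKM in any library, Laptm5 at most 0.0273 and Cd52 at 0, but Cd53 was at 1.93 and 2.17 FPKM in CTRL DM3 and 3.38 and 2.50 in Cas9M3 DM3. Of the 7 macrophage markers 5 were at 0 in both libraries of every group, while Cd68 was at 0.696 and 0.669 FPKM in CTRL DM3 and 1.51 and 1.14 in Cas9M3 DM3, and reached 6.38 FPKM in CTRL GM. Neither Cd53 nor Cd68 was called.

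**Figure D3:**
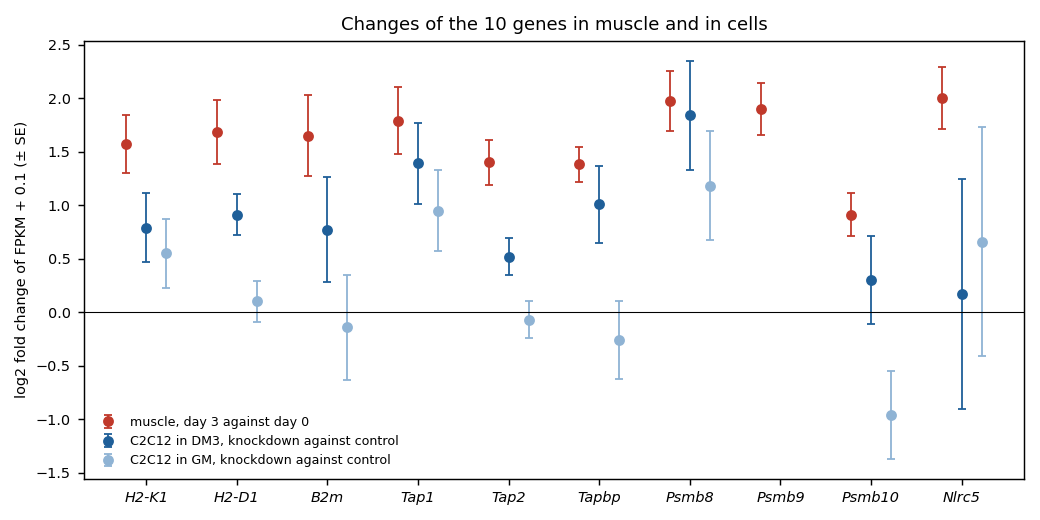
Log2 fold change of FPKM + 0.1 (y axis, points with bars of 1 SE from the limma fit) of each gene (x axis) for D3 against D0 in muscle (red) and for knockdown against control C2C12 cells in DM3 (dark blue) and in GM (light blue). Psmb9 has no C2C12 point because it did not pass the filter, and all red and dark blue points lie above 0, while the light blue points lie on both sides of it.

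In GM the 9 tested genes did not move together. The log2 fold changes of knockdown against control were 0.55 ± 0.32 for H2-K1, 0.10 ± 0.19 for H2-D1 and -0.14 ± 0.49 for B2m. They were 0.95 ± 0.38 for Tap1, -0.07 ± 0.17 for Tap2 and -0.26 ± 0.36 for Tapbp. Psmb8 was at 1.18 ± 0.51, Psmb10 at -0.96 ± 0.41 and Nlrc5 at 0.66 ± 1.07. By limma 0 of 9 genes and 0.0% of all genes were called higher, with 1 of 9 and 1244 of all genes at an unadjusted p of at most 0.05. Both knockdown libraries were above both control libraries for 3 genes, H2-K1, Tap1 and Psmb8 (15.6% of all genes), and below them for Psmb10. Replicate 2 of Cas9M3 GM was high for several of these genes, and without it H2-K1 was at 0.15, Tap1 at 0.50 and B2m at -0.68. Without replicate 1 of the same group they were at 0.95, 1.40 and 0.40. The sign for Nlrc5 depended on the library that stood apart, since its fold change ranged from -1.0 to 2.33 over the settings tried.

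Differentiation of control cells was not among the comparisons that chose the genes. On DM3 against GM in control cells H2-K1 was at 0.86 ± 0.32 (limma adjusted p = 0.238) and Tap2 at -0.39 ± 0.17 (limma adjusted p = 0.297). H2-D1, B2m, Tap1, Tapbp, Psmb8, Psmb10 and Nlrc5 were between -0.48 and 0.58. None of the 9 was called higher (0.767% of all genes; 1 of 9 at an unadjusted p of at most 0.05). Among the 9, both DM3 libraries were above both GM libraries for the heavy chains alone (24.8% of all genes), and below them for Tap2 (22.4% of all genes). Without replicate 1 of CTRL GM, which leaves the library that stood apart as the only control in GM, Psmb8 was called at 1.32 and Psmb10 at -1.11. In knockdown cells 8 of 9 genes were higher in DM3 than in GM, between -0.10 (Nlrc5) and 1.24 (Psmb8), with 0 of 9 called (0.0145% of all genes; 3 at an unadjusted p of at most 0.05) and no overlap for 6 (23.9% of all genes). The difference between the knockdown effects in DM3 and in GM was above 0 for 8 of 9 genes, from -0.49 ± 1.51 for Nlrc5 to 1.27 ± 0.50 for Tapbp, and 0 of 9 were called (0.0% of all genes; 2 of 9 at an unadjusted p of at most 0.05).

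Each immunosubunit was next set against the constitutive subunit whose place it takes, as its share of their summed FPKM within a library, which does not depend on how a table was scaled. The share does depend on the annotated gene lengths and on how a library covers short and long genes. In the cells the Psmb8 share was lower in replicate 2 than in replicate 1 of every group. The part of gene length in the shares was not tested. Psmb8 made up 2.33 and 3.44% of Psmb8 and Psmb5 in D0 muscle, 3.12 and 5.52% on D1, 12.1 and 9.79% on D3, 6.81 and 10.7% on D5 and 2.27 and 4.22% on D10. In the cells it made up 2.23 and 0.210% in CTRL GM, 3.09 and 1.83% in Cas9M3 GM, 2.05 and 1.08% in CTRL DM3 and 8.96 and 6.05% in Cas9M3 DM3. Replicate 1 of Cas9M3 DM3 lay within the range of D5 muscle and replicate 2 below it. Psmb9 made up 1.57 and 1.77% of Psmb9 and Psmb6 on D0 and 8.15 and 6.15% on D3. In the cells it made up 0.287 and 0.245% in CTRL DM3 and 1.34 and 1.63% in Cas9M3 DM3, which lay about the level of D0 muscle. Psmb10 made up 9.48 and 10.8% of Psmb10 and Psmb7 on D0, 25.3 and 25.7% on D3, 12.7 and 15.8% in CTRL DM3 and 22.9 and 21.9% in Cas9M3 DM3. Its share was similar in the GM libraries of the control cells, 15.9 and 16.1%, although its FPKM differed between them, 5.74 and 14.1, since Psmb7 differed as well.

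**Figure D4:**
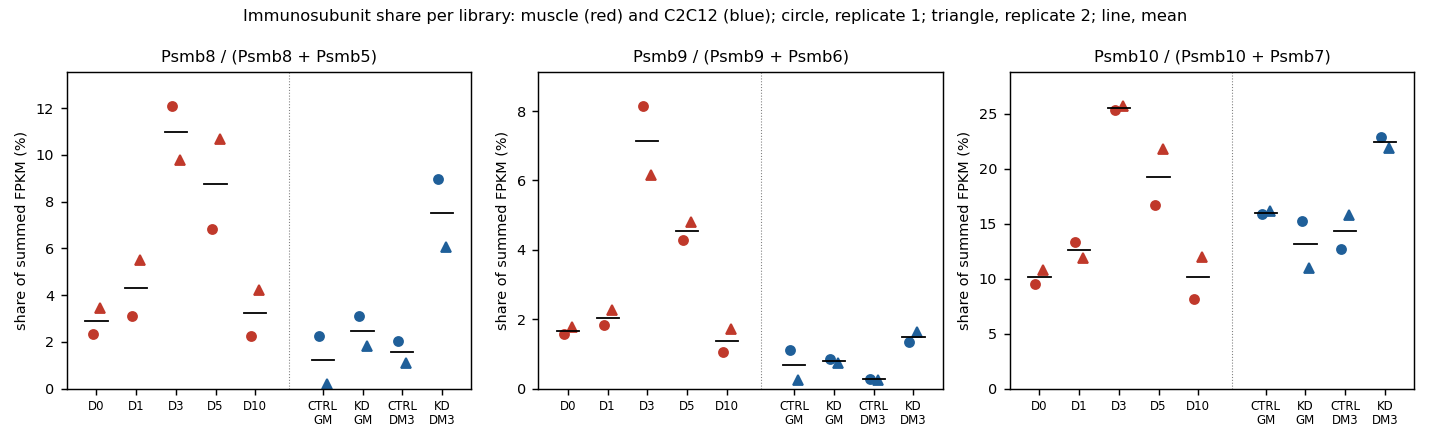
Share of each immunosubunit in the summed FPKM of itself and its constitutive counterpart (y axes, percent, starting at 0) for the muscle days (red) and the C2C12 groups (blue), with circles for replicate 1, triangles for replicate 2 and lines for the mean of 2 libraries. All 3 shares have their highest muscle mean on D3 and their highest C2C12 mean in the knockdown cells in DM3.

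The balance between members of the pathway differed between muscle and cells. For each 100 FPKM of B2m the heavy chains H2-K1 and H2-D1 together had 65.2 to 102 FPKM in the 10 muscle libraries and 7.81 to 17.1 FPKM in the 8 C2C12 libraries. In every C2C12 group this value was lower in replicate 2, as in CTRL GM (14.7 and 7.81) and Cas9M3 DM3 (15.6 and 11.4). B2m has 860 exonic bases, H2-K1 2938 and H2-D1 2579, and the part of gene length in these values was not tested. H2-K1 made up 40.5 to 48.6% of the heavy chain sum in muscle and 16.8 to 27.4% in the cells. Tap1 made up 26.1 to 43.2% of Tap1 and Tap2 in muscle and 6.90 to 21.8% in the cells. None of these ranges overlapped between muscle and cells, which also differ in strain and in table. Within the cells the Tap1 share was 18.0 and 16.6% in Cas9M3 DM3 and 8.90 and 10.8% in CTRL DM3. Over the 10 muscle libraries, which share their scaling and differ in day, the median Pearson correlation between pairs of the 10 genes on the log2 scale was 0.957 and the lowest was 0.879, between B2m and Psmb10. Over the 8 C2C12 libraries, which also differ in ribosomal share, the median was 0.437 and the lowest was -0.698, between Psmb10 and Nlrc5. The genes outside the 10 most like their mean course were Sh3gl1 (r = 0.992), B3galnt1 (0.988), Cybb (0.987), Zc3hav1 (0.986) and Themis2 (0.986) among 12277 genes in muscle. In the cells they were Rtp4 (0.991), Accs (0.991), Iigp1 (0.987), Parp10 (0.983) and Gm7361 (0.977) among 11543 genes.

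The other genes of the pathway were counted by list. Among the constitutive subunits Psmb5, Psmb6 and Psmb7, the PA28 activator subunits Psme1, Psme2 and Psme3 and the assembly factor Pomp, 1 of 7 was called higher on D3 and 2 lower, with a median of -0.06. These counts were near the shares over all genes tested, 24.5% higher and 24.3% lower. Psme2, an interferon-responsive activator subunit, rose from 12.3 and 12 FPKM on D0 to 23.7 and 22.9 on D3 (log2 fold change 0.93 ± 0.15, limma adjusted p = 0.00198). Psmb7 fell from 74.7 and 62.0 to 42.5 and 41.9 FPKM (-0.69 ± 0.14, limma adjusted p = 0.0059). The abundant subunits Psmb5 (-0.06 ± 0.20) and Psmb6 (-0.18 ± 0.15) were not called. Of the 2 lower calls 1 was lost without any single library of either day and both were lost with quantile normalization. In the DM3 knockdown comparison 0 of these 7 were called, with a median of -0.39 and Psmb6 at -0.56 ± 0.51.

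Heavy chains other than H2-K1 and H2-D1 include the nonclassical chains, which display fewer kinds of ligand, and the related Cd1d1 and Mr1. Of 16 listed, 10 were tested in muscle, with a median of 1.25. On D3, 7 were called higher (24.5% of all genes) and 1 (Mr1, -1.18 ± 0.17) lower (24.3% of all genes). H2-T23, the Qa-1 chain, rose from 3.53 and 6.12 FPKM on D0 to 18.7 and 23.3 on D3 (2.14 ± 0.37, limma adjusted p = 0.00263), H2-M3, which presents formylated peptides, from 1.17 and 1.46 to 6.17 and 5.84 (2.12 ± 0.25, limma adjusted p = 0.000624), and H2-Q4, the highest of the list as a mean over all muscle libraries though not on D3, from 8.78 and 11 to 16.5 and 13.0 (0.58 ± 0.20, limma adjusted p = 0.0429). The count of 7 dropped to 3 without replicate 1 of D0, without replicate 1 of D3 or with the Xist term, and to 4 without replicate 2 of D3. In the DM3 knockdown comparison 9 were tested, with a median of 0.80. All 9 were positive with no overlap (29.3% of all genes), and 0 were called (1.29% of all genes higher). H2-T23 was at 25.4 and 27.9 FPKM in CTRL DM3 and 41.0 and 41.5 in Cas9M3 DM3 (0.63 ± 0.31, limma adjusted p = 0.371), H2-T22 at 17.6 and 20.4 against 36.8 and 38.2 (0.98 ± 0.24, limma adjusted p = 0.105), H2-T24 at 1.37 ± 0.57 and Cd1d1 at 1.30 ± 0.36. In GM, H2-T24 (-1.44 ± 0.57) and H2-T23 (-1.29 ± 0.31) had the largest differences of the list and neither was called. With the replicate number as a block 2 of 9 were called in DM3, and on the DM3 groups alone 5.

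Of the chaperones and trimming enzymes that serve the loading of heavy chains, 5 of 8 were called higher on D3 and 0 lower, with a median of 1.01. Over all genes the shares were 24.5% and 24.3%. Pdia3 (ERp57), a disulfide isomerase of the loading complex, rose from 14.3 and 16.9 FPKM on D0 to 76.8 and 71.9 on D3 (2.25 ± 0.30, limma adjusted p = 0.00104), and the chaperone Calr (calreticulin) from 47.9 and 49.3 to 109 and 109 (1.17 ± 0.24, limma adjusted p = 0.00559). These chaperones also serve other secreted proteins. Already on D1, 5 of 8 were called higher (3.53% of all genes), with Hspa5 (BiP) at 1.72 ± 0.34 (limma adjusted p = 0.0371). At that time 0 of the 10 class I members were called. In the DM3 knockdown comparison 0 of 8 were called, with a median of 0.00, and Calr (0.41 ± 0.24) and Pdia3 (0.34 ± 0.21) had the largest values.

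Of 23 tested regulators of class I genes, 12 were called higher on D3 (24.5% of all genes) and 5 lower (24.3% of all genes), with a median of 0.78. The share of lower calls was thus near that over all genes. Irf8, a transcription factor of myeloid cells, rose from 0.831 and 1.09 FPKM to 5.83 and 6.47 (2.57 ± 0.18, limma adjusted p = 0.000263), and Ifnar2, a chain of the type I interferon receptor, from 1.66 and 1.53 to 7.15 and 7.37 (2.12 ± 0.31, limma adjusted p = 0.00138). Jak1, the kinase on both interferon receptors, was at -0.35 ± 0.18 (limma adjusted p = 0.147), and the interferon gamma receptor chain Ifngr2 fell by 0.73 ± 0.19 on the log2 scale (limma adjusted p = 0.016). The 12 higher calls dropped to 7 without replicate 2 of D3. In the DM3 knockdown comparison 2 of 22 tested were called higher and 0 lower, with a median of 0.30, and both calls were lost without any single DM3 library. Over all genes 1.29% were called higher in the main fit. With the replicate number as a block 3 of the list were called higher, with the log2 ribosomal share as a covariate 4, and on the DM3 groups alone 6. The 2 calls were Irf9, the DNA-binding subunit of the type I interferon response complex, at 2.38 and 2.50 FPKM in CTRL DM3 and 14.8 and 17.4 in Cas9M3 DM3 (2.67 ± 0.32, limma adjusted p = 0.0237), and Ifnar2, at 5.72 and 5.90 against 11.8 and 11.6 (0.99 ± 0.16, limma adjusted p = 0.0419). Jak1 was at 0.34 ± 0.25 in the same comparison. Irf8 was at most 0.00509 FPKM in any C2C12 library.

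**Figure D5:**
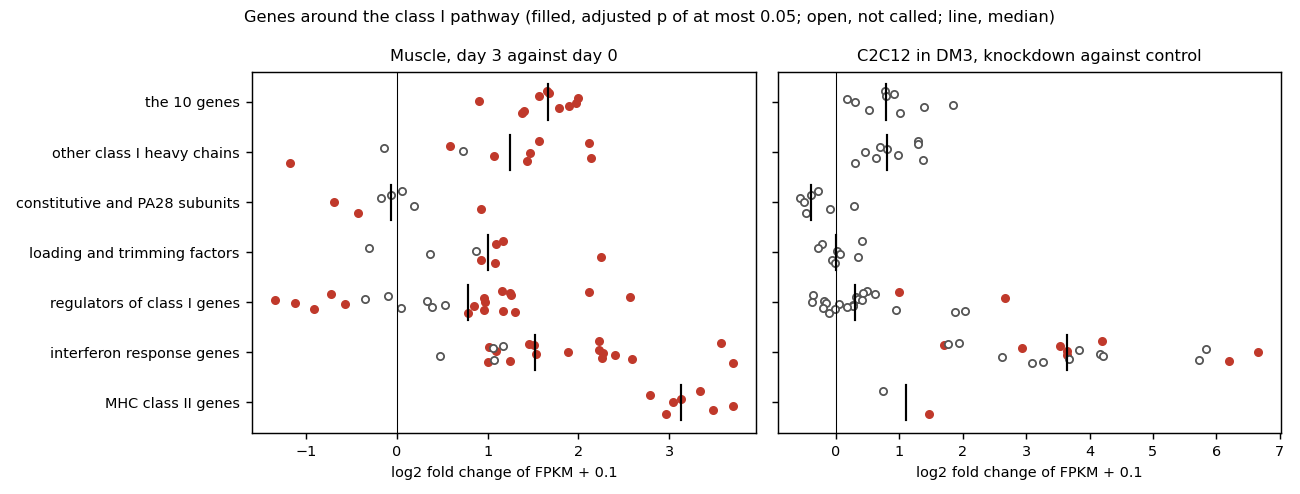
Log2 fold change of FPKM + 0.1 (x axes) of each tested gene by list (y axis) for D3 against D0 in muscle (left) and knockdown against control in DM3 (right), filled where the limma adjusted p was at most 0.05, with a line at each list's median. Class II genes lie farthest from 0 in muscle (median 3.13) and interferon response genes in the cells (median 3.65), while the 10 genes have medians of 1.66 and 0.79.

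General interferon response genes were the list with the largest median in the cells. On D3, 16 of 20 were called higher (24.5% of all genes) and 0 lower (24.3% of all genes), with a median of 1.52. Zbp1, a nucleic acid sensor, rose from 0.25 and 0.382 FPKM to 4.52 and 6.09 (3.70 ± 0.54, limma adjusted p = 0.00143), and the chemokine Cxcl10 from 0.107 and 0.333 to 4.36 and 2.74 (3.57 ± 0.73, limma adjusted p = 0.00565). The 16 calls dropped to 5 without replicate 1 of D0 or replicate 2 of D3, to 7 without replicate 1 of D3 or with the Xist term, and to 10 without replicate 2 of D0 or with no filter. In the DM3 knockdown comparison all 19 tested were positive with no overlap (29.3% of all genes). Of these, 8 were called higher (1.29% of all genes), and the median was 3.65. Ifit1, which binds RNA with foreign 5′ ends, was at 0.645 and 1.36 FPKM in CTRL DM3 and 112 and 98.4 in Cas9M3 DM3 (6.66 ± 1.09, limma adjusted p = 0.043), Usp18, which removes Isg15 from proteins, at 0.0523 and 0.0861 against 11.7 and 12.8 (6.20 ± 0.96, limma adjusted p = 0.0373), and Bst2 (tetherin) at 4.28 and 7.58 against 97.7 and 115 (4.20 ± 0.72, limma adjusted p = 0.0493). The 8 calls became 13 with the replicate block, 14 with the ribosomal covariate and 19 on the DM3 groups alone, 5 with a pseudocount of 0.01, and 0 without any single DM3 library. In GM 17 of 19 were positive with a median of 1.23 and 0 were called, with Usp18 at 3.78 ± 0.96 and Ifit1 at 3.34 ± 1.09. Replicate 2 of Cas9M3 GM carried much of this, with Ifit1 at 18.5 FPKM against 1.83 in replicate 1 and Usp18 at 4.31 against 0.375. Without replicate 2 the median was 0.24, without replicate 1 it was 2.27, and without replicate 2 of CTRL GM 1.82.

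MHC class II genes present extracellular peptides on professional presenting cells. On D3 all 7 were called higher, in each of the 14 settings, with a median of 3.13. Over all genes 24.5% were called higher on D3 in the main fit. Cd74, the class II chaperone, rose from 21.1 and 35.2 FPKM on D0 to 257 and 298 on D3 (3.34 ± 0.48, limma adjusted p = 0.00128), H2-Eb1 from 14.7 and 20.9 to 137 and 137 (2.96 ± 0.44, limma adjusted p = 0.00149), and H2-DMa, a chain of the peptide exchange factor, from 0.929 and 2.10 to 19.2 and 19.8 (3.70 ± 0.40, limma adjusted p = 0.000491). In the cells 2 of the 7 passed the filter. H2-DMa was at 2.01 and 1.78 FPKM in CTRL DM3 and 5.10 and 5.78 in Cas9M3 DM3 (1.47 ± 0.23, limma adjusted p = 0.039), a call lost without any single DM3 library, and Cd74 was at 0.195 and 0.215 against 0.513 and 0.324 (0.74 ± 1.16, limma adjusted p = 0.836). H2-Eb1 was at most 0.0738 FPKM in any C2C12 library. Set side by side without a test, since the tables were scaled separately, class I genes had smaller medians than class II genes in muscle and smaller medians than interferon response genes in the cells. Nlrc5 had the largest point estimate of the members in muscle (2.00 ± 0.29), close to Psmb8 (1.97 ± 0.28). In the DM3 cells it had the smallest (0.17 ± 1.07), with an SE too wide to rank it.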

How the data were processed

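RNA-seq libraries of TA muscle (10) and of C2C12 cells (8) were analysed. Per the methods, the authors used HISAT2 for alignment (build GRCm38), featureCounts for gene counts and DESeq2 for conversion into the deposited FPKM, with each table scaled on its own, so tests were made within a table. Tool versions and the strand setting are not given in the sources used here.

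Samples were grouped by their labels. A gene was tested if 2 or more libraries reached 0.5 FPKM. Values of log2(FPKM + 0.1) entered limma 3.58.1 (R 4.3.3, lmFit and trended eBayes), all groups of a table together, with Benjamini-Hochberg adjustment and a call at an adjusted p of at most 0.05. Since the files hold FPKM, limma took the place of the count model of the study. An exact permutation test of 2 against 2 libraries cannot give a p below 0.333. The fit was tested on simulated data. Depth, 14170000 to 29570000 reads on genes per library, was read from the steps of low FPKM values and used in no test. FPKM alone carry no counting interval.

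The 10 genes and all lists were chosen with earlier results of these data known. From each list, the genes with the highest mean and the largest change were named, and Mr1, and in the cells Ifnar2, Irf8 and H2-Eb1, were named outside that rule after their values were seen. A gene of the regulator list that the rule names is not reported here. Same-numbered C2C12 libraries deviated together from their group means (6 correlations of 0.278 to 0.68), so values with the replicate number as a block are given where they change a count. Python 3.11.15, pandas 2.3.3, numpy 2.4.6 and matplotlib 3.10.9 were used for the other steps.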

Additional observations from a re-analysis of the deposited data

How the results depend on the processing

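Of 171 values of 12 counts of called class I genes over all alternatives, 149 kept their side of the threshold and their size within 1.5 times, and no fold change of a called gene reversed. With a log2 fold change of at least 2 required as well, the counts for D3 against D0, D5 against D0 and D3 against D1 were 0, 0 and 0. With the Xist term they were 0 for D5 against D0 and 1 for D3 against D1. Leaving out single libraries gave 9 to 10 for D3 against D0, 0 to 8 for D5 against D0, 1 to 6 for D3 against D1, 0 to 8 for D10 against D5 and 0 to 1 for DM3 against GM in control cells. For D5 against D3 a pseudocount of 1 gave 1 and the fit on only the groups compared gave 2. For D10 against D5 a pseudocount of 1 gave 1, quantile normalization 1 and the replicate block 4, and same-numbered muscle libraries correlated between -0.0187 and 0.211, so they share only a number. For the knockdown in DM3 a pseudocount of 1 gave 1, the fit on only the groups compared gave 4, and the log2 ribosomal share as a covariate, chosen after seeing the data, gave 2. The replicate block changed no other count of class I genes. A pseudocount of 0.1 FPKM moved the mean Psmb9 share to 0.458% in CTRL DM3 and to 1.76% in Cas9M3 DM3. The cause of these changes was not tested, other than that fewer libraries or groups leave fewer degrees of freedom. A library left alone in its group was assumed to vary like the others. The low counts behind Psmb8, Psmb9 and Nlrc5 in the cells limit their precision.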
